A study of Mus musculus with 9 samples.

Results

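Mouse embryos labelled null for the Notch1 receptor were compared with mouse embryos labelled null for Dll3, a ligand-like protein of the same pathway, at 9.5 days post coitum. The comparison rests on 4 of the 9 arrays of the study: the 2 arrays titled Notch1 null and the 2 titled Dll3 null, each from whole embryos. The other 5 arrays, 2 wild type, 1 Notch1 heterozygote and 2 Dll3 heterozygotes, are printed beside the results as reference levels and enter the comparisons with wild type and with heterozygotes. The wild type and Dll3 heterozygote arrays also add to the shared estimate of spread, to which the single Notch1 heterozygote adds nothing. The Notch1 null arrays carried the genotype Notch1tm1Con/tm1Con and the Notch1 heterozygote Notch1tm1Con/+. The Dll3 null arrays carried Dll3neo/neo, the Dll3 heterozygotes Dll3neo/+, and the wild type arrays +/+. A strain, C57BL/6J, was given for 1 Notch1 null array only, and no treatment was given for any. The labels did not say whether an array held a single embryo, a pool or a litter, so the errors and p-values below describe how these arrays differ from each other, and part of that spread may be technical. In whole embryos fewer cells of a type cannot be told apart from less RNA per cell.

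Notch1 is a receptor at the cell surface. When a Delta or Jagged ligand on a neighbouring cell binds it, proteases release its intracellular domain, which enters the nucleus, joins Rbpj and Maml proteins on DNA and switches on genes such as those of the Hes and Hey families. Dll3 is a divergent Delta protein that is found mostly inside the cell, where it can act on Notch in the same cell, and it is best known from the presomitic mesoderm, the tissue that is cut into somites. Mice without Dll3 form irregular vertebrae and ribs, whereas embryos without Notch1 die in midgestation with defects of vessels, heart and somites.

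The deposited values were ratios: for each probe set (a group of short probes that reads a transcript), the values of the 9 arrays were expressed relative to a number of their own, and the median over the 9 arrays was exactly 1 for 19796 of the 22626 probe sets tested. Differences between arrays can be read from them, but levels of different genes cannot. Replicates correlated across probe sets at r = 0.80 for the Notch1 null arrays and 0.65 for the Dll3 null arrays. The second Dll3 null array correlated more closely with the Dll3 heterozygotes, at 0.74 and 0.71. The first Dll3 null array correlated at 0.65 with each wild type array, so the Dll3 null arrays did not stand apart as a group. Between the null groups r lay between 0.456 and 0.567. The median absolute log2 difference was 0.139 between the null groups, 0.116 between the Notch1 null arrays and 0.124 between the Dll3 null arrays. The arrays also differed in spiked-in control transcripts. The dap control, which is added to the RNA before labelling, read 5.35 and 2.87 in the Notch1 null arrays, 0.444 and 0.468 in the Dll3 null arrays, 0.453 and 0.466 in the Dll3 heterozygotes, 1.00 in the Notch1 heterozygote and 6.71 and 9.20 in wild type. RNA preparation and genotype therefore cannot be told apart in this comparison, although wild type arrays shared the high dap value with the Notch1 null arrays. Xist, which is transcribed from the inactive X chromosome, read 22.2 and 0.856 in the Notch1 null arrays and 11.4 and 0.747 in the Dll3 null arrays, and the Y-linked Eif2s3y read 0.106 and 1.85 against 0.140 and 1.15. Each null group thus held 1 array with a female and 1 with a male pattern, in the same order, so leaving out 1 null array also unbalances sex between the groups.

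The targeted genes were examined first. Notch1 is read by 2 probe sets. The first read 1.47 and 1.69 in the arrays labelled Notch1 null against 0.752 and 0.894 in the Dll3 null arrays, and the second 1.31 and 1.74 against 1.00 and 0.602. Averaged over both, Notch1 signal was higher in the arrays labelled Notch1 null by 0.95 ± 0.13 on the log2 scale (standard error, SE; n = 2 and 2; limma, adjusted p = 0.00451). It was 1.07 in the Notch1 heterozygote and 0.945 and 1.01 in wild type. Where these probes lie in relation to the targeted part of the gene was not analysed here, so the signal does not check the loss of the protein, and every direction below is one between arrays labelled Notch1 null and arrays labelled Dll3 null. The single Dll3 probe set read 0.981 and 1.10 in the Notch1 null arrays and 0.804 and 0.933 in the Dll3 null arrays, a log2 difference of 0.26 ± 0.11 that did not pass the test (adjusted p = 0.201 in the fit by gene).

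Of 22626 probe sets, 1298 (5.74%) passed an adjusted p of 0.05, 557 of them higher (2.46%) and 741 lower (3.27%) in the Notch1 null arrays than in the Dll3 null arrays. After averaging the probe sets of each gene, 966 of 12393 genes (7.79%) passed, 362 higher (2.92%) and 604 lower (4.87%). The differences were larger upward than downward: 113 of the called probe sets were higher by at least 2-fold and 31 lower by at least 2-fold. In all 1298 called probe sets the 2 arrays of one group lay outside the range of the other group's, which also held for 17.4% (higher) and 35.9% (lower) of all probe sets. The number of calls changed with the arrays that gave the spread. It also changed when single arrays were left out, which removes residual degrees of freedom as well. A fit to the 4 null arrays alone called 9 probe sets, all higher, and 182 genes; leaving out the second Notch1 null array left 57 probe sets and 94 genes, leaving out the first Dll3 null array 271 and 131, and leaving out the first Notch1 null array 488 and 509. After centring every array on its median the split of probe sets was 610 higher and 595 lower, and after quantile normalization 292 and 276. By gene it was 399 higher and 482 lower after median centring, and 220 and 228 after quantile normalization. The excess of lower calls thus did not hold by probe set under these scalings, and by gene it became smaller.

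The wild type arrays placed most of these differences on the Notch1 side. In 512 of the 557 probe sets called higher (91.9%) and 678 of the 741 called lower (91.5%), the wild type mean lay nearer the Dll3 null mean than the Notch1 null mean. The same share over all probe sets was not computed. Over all probe sets the wild type arrays correlated with the Dll3 null arrays at r = 0.588 to 0.649. With the Notch1 null arrays r was 0.427 to 0.483, so a majority on this side is not particular to the calls. Against wild type, 2139 probe sets (9.45%) passed the test in the Notch1 null arrays, 783 higher (3.46%) and 1356 lower (5.99%). In the Dll3 null arrays 20 (0.0884%) passed, 4 higher (0.0177%) and 16 lower (0.0707%). Without adjustment, 5350 and 2307 probe sets had a p under 0.05. These comparisons share the wild type arrays, and the count of one was not tested against that of the other.

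**Figure D1:**
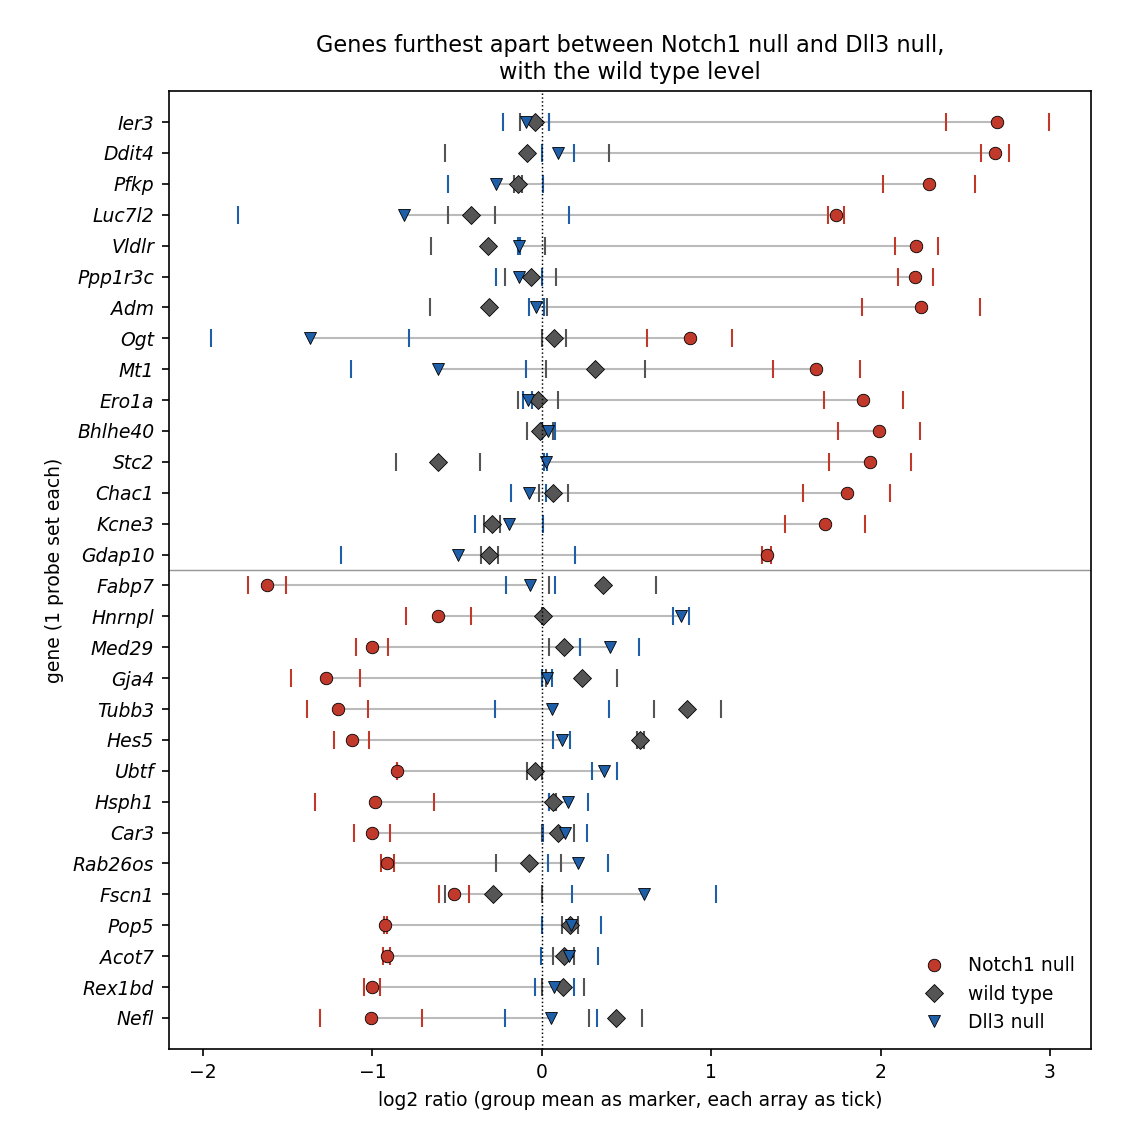
Log2 ratio of the 15 genes furthest above and the 15 furthest below in Notch1 null against Dll3 null arrays, 1 probe set each; markers are group means of 2 arrays, ticks are single arrays, and the dotted line is a ratio of 1. For most genes the wild type diamond sits by the Dll3 null triangle; Ogt, Fscn1 and Hnrnpl are among the exceptions, and Ogt and Hnrnpl had log2 differences from wild type of -1.44 and 0.82 in the Dll3 null arrays (adjusted p = 0.163 and 0.124).

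Genes that cells use when oxygen is short stood at the top of the list. The transcription factor HIF is destroyed while oxygen is plentiful, because prolyl hydroxylases of the Egln family mark it for the Vhl ubiquitin ligase; when oxygen falls, HIF binds DNA at a short core sequence and raises genes for glucose uptake, glycolysis, mitochondrial removal and vessel growth. Of 37 measured genes on a list of oxygen-responsive genes, 25 were higher in the Notch1 null arrays (67.6%) and 0 were lower. The median log2 difference was 0.79 against -0.04 over all genes. Over all genes 2.92% were called higher and 4.87% lower, the shares to set beside each list count below. The members of this and every other list were chosen with earlier results of these data known. The list counts therefore describe the lists and are no independent test. The same list had a median of 0.92 for Notch1 null against wild type and of 0.05 for Dll3 null against wild type. Leaving out any of the 4 null arrays, or fitting them alone, gave between 18 and 26 genes called higher.

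Bnip3, a mitochondrial protein that promotes the removal of mitochondria, had the lowest p of the list. It read 3.42 and 3.60 in the Notch1 null arrays and 1.01 and 0.982 in the Dll3 null arrays, and between 0.961 and 1.00 in the 5 other arrays. The log2 difference was 1.81 ± 0.09 (adjusted p = 3.49e-05), and its call by gene held in all 14 alternatives tried. Ddit4, which restrains mTOR signalling under stress, read 6.03 and 6.75 against 1.14 and 1.00. Its log2 difference was 2.58 ± 0.25 in the fit by gene, while the wild type arrays read 1.31 and 0.672 and the Notch1 heterozygote 0.495. Adm, the vasodilator adrenomedullin, read 3.71 and 6.01 against 1.01 and 0.949. Ppp1r3c, which targets a phosphatase to glycogen, read 4.29 and 4.95 against 1.00 and 0.828 in the probe set furthest apart. Ier3, an early response gene on the same list, read 5.22 and 7.98 against 1.03 and 0.853, the largest difference of any named gene at 6.89-fold. In each of these genes the Notch1 null arrays stood above all 7 others.

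To show the DNA in front of such genes, the 250 bases before the annotated start were taken from RefSeq (build GRCm38.p6) for Bnip3, Ppp1r3c and Ddit4, which are among the 10 genes of lowest p on the oxygen list and hold the HIF core ACGTG there, and for Hes5, the Notch target that fell furthest. Sequences run 5′ to 3′ on the strand of the gene and end at the base before the start. Capitals mark ACGTG, or its reverse complement, in the first 3 and GTGGGAA, the sequence bound by Rbpj, or its reverse complement in the last. Where ACGTG on both strands overlaps in CACGTG, which is also the E-box bound by Bhlhe40 and other bHLH proteins, 6 letters are in capitals and 2 matches are counted.
Bnip3: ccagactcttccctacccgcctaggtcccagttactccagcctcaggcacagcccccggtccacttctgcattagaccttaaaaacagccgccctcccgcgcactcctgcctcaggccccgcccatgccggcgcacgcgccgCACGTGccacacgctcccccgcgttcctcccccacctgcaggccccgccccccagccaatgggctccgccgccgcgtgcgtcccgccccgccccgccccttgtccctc
Ppp1r3c: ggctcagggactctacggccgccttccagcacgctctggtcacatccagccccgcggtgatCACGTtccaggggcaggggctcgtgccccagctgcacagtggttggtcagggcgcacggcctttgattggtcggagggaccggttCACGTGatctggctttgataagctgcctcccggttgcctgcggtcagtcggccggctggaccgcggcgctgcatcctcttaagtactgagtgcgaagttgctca
Ddit4: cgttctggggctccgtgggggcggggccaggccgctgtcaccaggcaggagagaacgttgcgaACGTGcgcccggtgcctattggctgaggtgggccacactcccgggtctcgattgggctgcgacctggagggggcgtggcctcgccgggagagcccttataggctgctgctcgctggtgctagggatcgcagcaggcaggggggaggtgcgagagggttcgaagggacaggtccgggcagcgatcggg
Hes5: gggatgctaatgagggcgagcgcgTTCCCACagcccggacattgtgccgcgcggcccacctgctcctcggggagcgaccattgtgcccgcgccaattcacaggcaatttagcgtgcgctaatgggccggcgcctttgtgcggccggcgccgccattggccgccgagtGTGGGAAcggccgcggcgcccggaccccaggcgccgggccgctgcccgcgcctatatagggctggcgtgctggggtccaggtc
The Bnip3 window is chr7:138909507-138909756 on the minus strand, with 2 matches. The Ppp1r3c window is chr19:36736605-36736854 on the minus strand, with 3 matches, and that of Ddit4 is chr10:59951771-59952020 on the minus strand, with 1. The Hes5 window is chr4:154960673-154960922 on the plus strand and holds 2 matches to GTGGGAA. Of 30 measured genes of the oxygen list with a promoter in the table, 19 (63.3%) held ACGTG in the window, beside 2276 of 9887 measured genes (23.0%) and 5444 of all 32851 promoters (16.6%). Among the 20 of these 30 genes that were called higher, 14 (70.0%) held it. The list was put together from genes known to respond to oxygen, so its share describes the list and is no result of these arrays. Ier3, Egln3 and Ero1a, also among the 10 genes of lowest p, held ACGTG as well and are not printed. GTGGGAA stood in 5.42% of all promoters and, counted by gene, in 626 of 9887 measured genes (6.33%). It stood in 3 of 11 measured Notch target genes with a promoter (27.3%) and in 3 of 30 of the oxygen list (10%). A match is a run of letters and not a binding site shown by these data.

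Among the HIF factors 2 of 9 measured were higher and 0 lower, both of them prolyl hydroxylases. Egln3 read 2.57 and 3.37 in the Notch1 null arrays against 0.910 and 0.945 in the Dll3 null arrays (log2 1.67 ± 0.13, adjusted p = 0.000418). Egln1 read 1.59 and 2.31 against 0.920 and 0.882 (log2 1.09 ± 0.15, adjusted p = 0.00534). Both are known targets of HIF as well as its regulators. The other 7 measured HIF factors did not pass: Hif1a itself differed by -0.11 ± 0.12, Epas1 by 0.13 ± 0.15, and Vhl, which read 0.709 and 0.990 against 1.08 and 1.12, by -0.39 ± 0.18.

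Glycolysis is the breakdown of glucose to pyruvate. Of 17 measured genes 8 were higher and 0 lower, with a median of 0.47. Pfkp, the platelet form of phosphofructokinase, led with 2.74 and 4.05 against 1.01 and 0.769 (log2 1.92 ± 0.19, adjusted p = 0.00105). Hk2, the inducible hexokinase, read 2.20 and 2.33 against 1.00 and 1.05 (log2 1.14 ± 0.11, adjusted p = 0.00111). Aldoc and Pgk1 differed by 0.63 ± 0.11 and 0.56 ± 0.11, calls that ended in the 4 null arrays alone and without the second Notch1 null or the first Dll3 null array. Ldha, the lactate dehydrogenase subunit of muscle, read 1.16 and 1.13 against 1.00 and 1.04 and did not pass (0.17 ± 0.09, adjusted p = 0.295). The count for glycolysis was 4 after quantile normalization or without the second Dll3 null array, and 2 in the 4 null arrays alone, without the second Notch1 null or without the first Dll3 null array. Among glucose carriers, which sit on the oxygen list, Slc2a3 read 2.07 and 2.06 against 0.973 and 1.22, with wild type at 0.666 and 0.640.

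**Figure D2:**
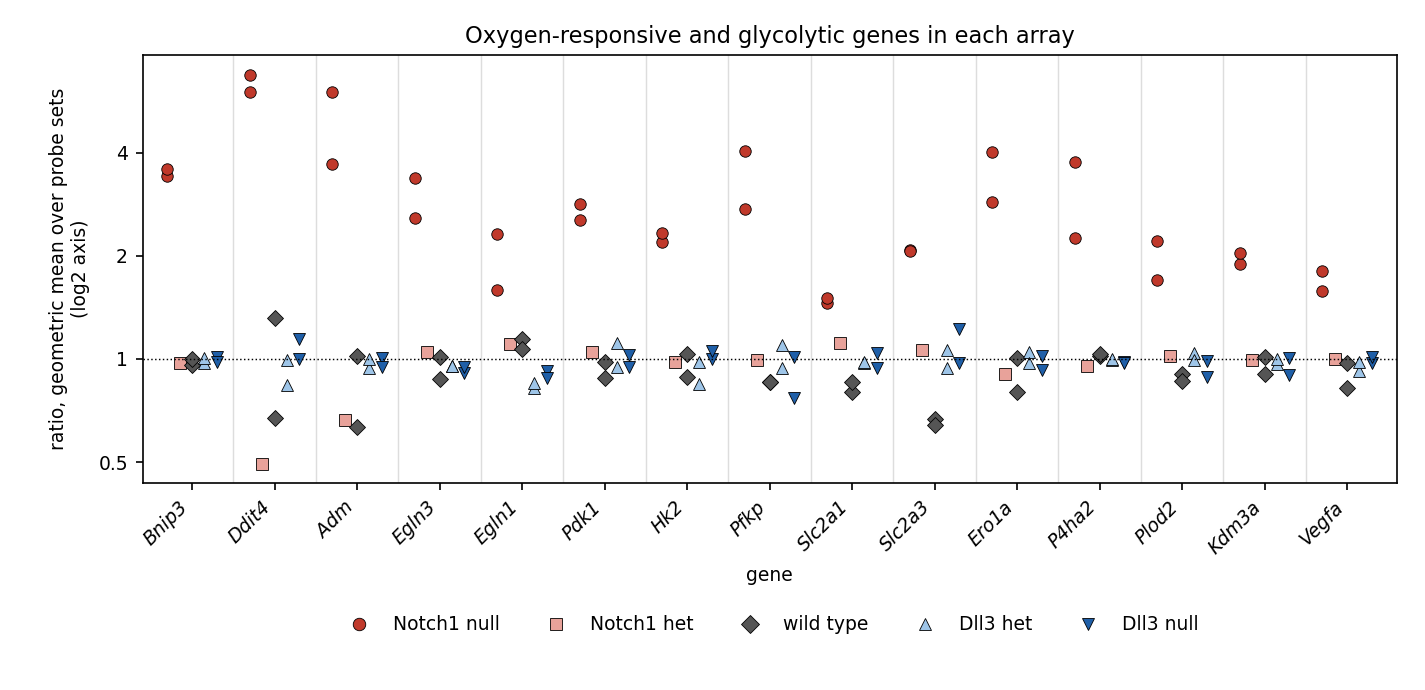
Ratio of 15 oxygen-responsive and glycolytic genes in each of the 9 arrays, on a log2 axis; each symbol is 1 array and the geometric mean over the probe sets of the gene. The Notch1 null circles lie above every other array in all 15 genes, for example Bnip3 at 3.42 and 3.60, where the 7 others lie between 0.961 and 1.01. These 15 genes are a part of the oxygen and glycolysis lists, chosen with earlier results of these data known. Ldha, which did not pass, is not shown.

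Oxidative phosphorylation uses oxygen in mitochondria to make ATP. Of 51 measured genes, subunits of the complexes and cytochrome c, 10 were lower and 0 higher in the Notch1 null arrays, with a median of -0.23. Atp5g1, a subunit of ATP synthase, read 0.670 and 0.646 against 1.05 and 0.993 (log2 -0.64 ± 0.09, adjusted p = 0.0064). Ndufa5, a subunit of complex I, read 0.768 and 0.704 against 1.03 and 1.11, and Cycs, cytochrome c, read 0.753 and 0.525 against 1.05 and 1.10. The count of 10 was 0 without the second Notch1 null or the first Dll3 null array, 4 without the first Notch1 null array, 3 after quantile normalization and 1 in the 4 null arrays alone.

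Part of the genes raised by the stress factor ATF4, which answers amino acid shortage and misfolded protein, were also higher. Of 37 measured, 9 were higher and 1 lower, with a median of 0.21. Chac1, which degrades glutathione, read 2.92 and 4.15 against 0.881 and 1.02 (log2 1.88 ± 0.17, adjusted p = 0.00102). Stc2, a secreted glycoprotein also on the oxygen list, read 2.35 and 2.62 against 0.990 and 1.03. Vldlr, the very low density lipoprotein receptor and on the same 2 lists, is read by 4 probe sets, of which 2 were called higher; the furthest read 4.24 and 5.06 against 0.908 and 0.915. Wars, a tRNA synthetase, was the member called lower, at 0.781 and 0.712 against 1.08 and 1.10. The count of 9 was 3 without the second Notch1 null array, 4 without either Dll3 null array and 3 in the 4 null arrays alone. The list's median was -0.02 between the first replicates and 0.46 between the second ones.

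Metallothioneins bind zinc and copper. Mt2 read 2.14 and 3.10 in the Notch1 null arrays against 0.953 and 0.602 (log2 1.77 ± 0.22, adjusted p = 0.00353), and Mt1 1.64 and 2.05 against 0.981 and 0.678. Of the 2 Mt1 probe sets 1 was called higher. The other 3 measured genes of this list, Mt3, Mtf1 and Slc30a1, lay between -0.21 and -0.12 and did not pass. Immediate early genes, which respond within minutes to growth factors and handling, had 5 of 24 called higher and 0 lower: besides Ier3 these were Egr1 (2.08 and 1.77 against 0.996 and 0.755), Maff, Fos and Ccn2. The 19 others did not pass, and the median of the list was 0.09. The count of 5 was 2, 1, 2 and 1 without the first Notch1 null, second Notch1 null, first Dll3 null and second Dll3 null array. Heat shock genes, chaperones that refold proteins, had 4 of 19 lower and 0 higher, led by Hsph1 at 0.596 and 0.444 against 1.23 and 1.03 (log2 -1.13 ± 0.16, adjusted p = 0.0054) and Ahsa1. The count of 4 was 0 without the second Notch1 null array, 1 without the first Dll3 null array, and 2 in the 4 null arrays alone or after quantile normalization.

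In the Notch pathway the called members were the following, beside 2.92% of all genes called higher and 4.87% called lower. Of 4 receptors, Notch1 alone was called, higher as given above. Notch2 read 1.07 and 0.973 against 1.01 and 0.900, Notch3 1.08 and 1.25 against 1.04 and 0.885, and Notch4 0.882 and 0.992 against 1.00 and 0.991; their log2 differences of 0.10 ± 0.10, 0.28 ± 0.12 and -0.09 ± 0.11 did not pass. Of 11 ligands and ligand- or receptor-modifying enzymes, 2 were lower (18.2%) and 0 higher. Jag1, a Jagged ligand, read 0.777 and 0.823 against 1.47 and 1.06 (log2 -0.64 ± 0.14, adjusted p = 0.0281), with the Notch1 heterozygote at 0.791 and wild type at 1.06 and 0.989. Lfng, a fringe enzyme that adds sugar to Notch and cycles in the presomitic mesoderm, read 0.780 and 0.868 against 1.09 and 1.20 (log2 -0.47 ± 0.10, adjusted p = 0.0245). The Lfng call ended in 7 and the Jag1 call in 5 of 14 alternatives, among them quantile normalization. The remaining ligands did not pass: Dll1 differed by -0.17 ± 0.11, Dll4 by -0.06 ± 0.10, Jag2 by 0.07 ± 0.15 and the non-canonical Dlk1 by 0.33 ± 0.18. Neither did the enzymes Mfng (-0.32 ± 0.14), Rfng (-0.13 ± 0.10), Pofut1 (-0.13 ± 0.12) and Poglut1 (0.32 ± 0.13). Of 21 genes that cut Notch, move it or work with it in the nucleus, Spen, a corepressor that binds Rbpj, was the 1 call, at 1.26 and 1.42 against 1.00 and 0.839; its highest value over the 9 arrays, 2.31, was in the Notch1 heterozygote. The Spen call ended in 6 of 14 alternatives, among them quantile normalization. Rbpj differed by 0.11 ± 0.11.

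Of 20 genes on the Notch target list 4 were lower (20.0%) and 1 higher (5%) in the Notch1 null arrays, with a median of -0.13. Hes6, among these 4, also stands on the proneural list and is counted in both. Hes5, a bHLH repressor that keeps neural progenitors from becoming neurons, read 0.522 and 0.456 against 1.06 and 1.03. The log2 difference was -1.10 ± 0.10 (adjusted p = 0.00102), both of its probe sets were called, and the call by gene held in all 14 alternatives. Its probe set furthest apart lost its call in the 4 null arrays alone (limma, adjusted p = 0.0506). Hes5 was 1.28 and 1.35 in wild type, so the Dll3 null arrays also lay below the wild type arrays, with a log2 difference of -0.34 that did not pass (adjusted p = 0.351). Nrarp, a feedback inhibitor of Notch, read 0.635 and 0.757 against 1.17 and 0.936, Id4 0.718 and 0.685 against 1.08 and 0.953, and Hes6 0.642 and 0.771 against 1.10 and 0.926. Their log2 differences were -0.59 ± 0.14, -0.53 ± 0.12 and -0.52 ± 0.12 (adjusted p = 0.0333, 0.0252 and 0.0323), and each ended in 6 of 14 alternatives. Hes5 was the 1 lower target left after quantile normalization, in the 4 null arrays alone, and without the first Notch1 null, the second Notch1 null or the first Dll3 null array. Bhlhe40, the member called higher, read 3.36 and 4.71 against 1.05 and 1.00; it is also a known HIF target and stands on the oxygen list.

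The other 15 Notch targets did not pass. Hes1 read 0.898 and 0.969 against 1.05 and 1.00 (-0.13 ± 0.12) and Hes7, the cycling repressor of the segmentation clock, 0.996 and 0.987 against 1.01 and 1.03 (-0.04 ± 0.11). Hey1 differed by -0.22 ± 0.15, Hey2 by 0.08 ± 0.13 and Heyl by -0.27 ± 0.10. Hes3 and Ccnd1 lay lowest of these, at -0.48 ± 0.16 and -0.46 ± 0.12 (adjusted p = 0.0967 and 0.0512). Efnb2 differed by -0.19 ± 0.10, Snai1 by -0.12 ± 0.10, Gata2 by -0.10 ± 0.09 and Myc by -0.00096 ± 0.09. Dtx1, Tagln, Sox9 and Acta2 lay at 0.02 ± 0.12, 0.07 ± 0.13, 0.15 ± 0.09 and 0.19 ± 0.10. Snai1 was 1.49 and 1.32 in wild type and between 0.865 and 1.09 in the 7 other arrays.

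**Figure D3:**
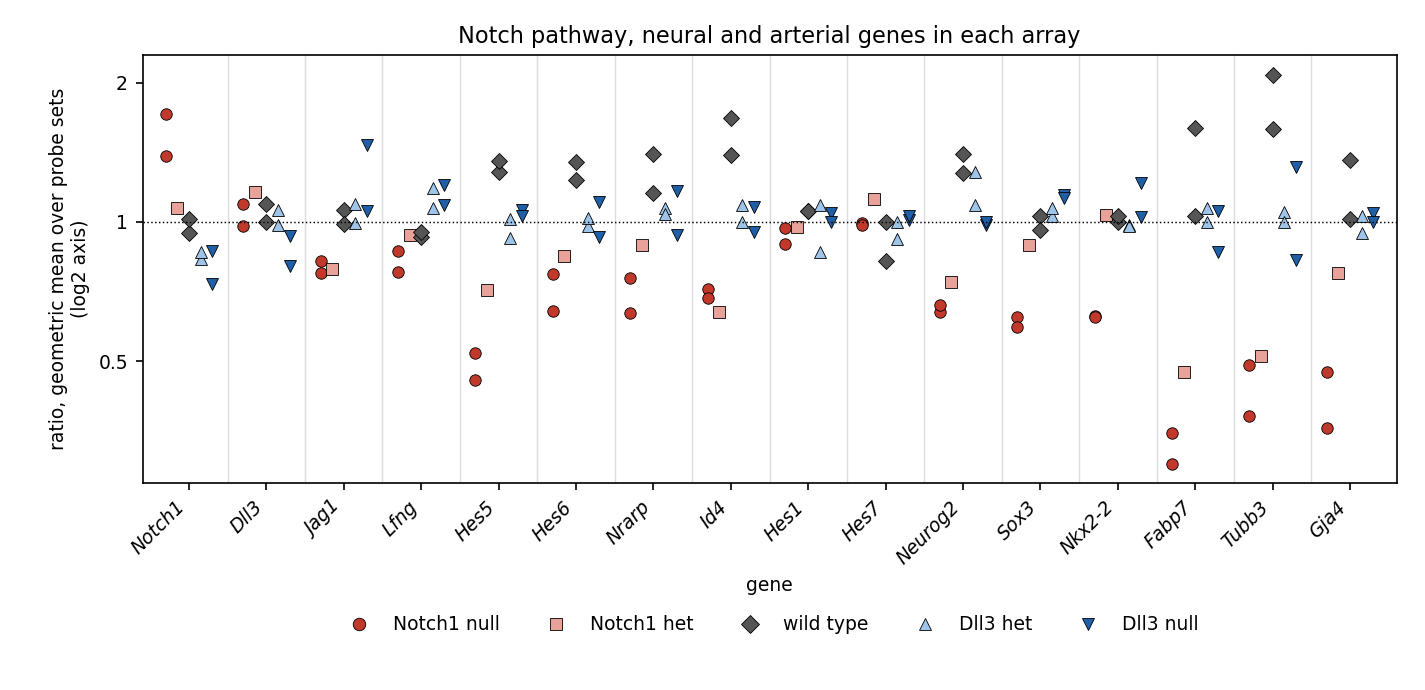
Ratio of 16 Notch pathway, neural and arterial genes in each of the 9 arrays, on a log2 axis; each symbol is 1 array and the geometric mean over the probe sets of the gene. Hes5 is lowest in the Notch1 null arrays (0.522 and 0.456), Hes1 and Hes7 lie close together in all groups, and for Tubb3 and Fabp7 the Notch1 heterozygote (0.513 and 0.475) lies by the Notch1 null arrays.

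Part of the neural progenitor genes were lower in the Notch1 null arrays. Of 34 measured neural progenitor genes 10 were lower and 0 higher, with a median of -0.30. Fabp7, a fatty acid binding protein of radial glia, read 0.301 and 0.351 against 1.05 and 0.863 (log2 -1.55 ± 0.19, adjusted p = 0.00311), the largest fall of any named gene. Sox3, a factor that maintains neural progenitors, read 0.622 and 0.592 against 1.14 and 1.13 (log2 -0.90 ± 0.09, adjusted p = 0.00117). Nkx2-2, a factor of the ventral neural tube, read 0.626 and 0.624 against 1.03 and 1.21 (log2 -0.83 ± 0.10, adjusted p = 0.00311), while the Notch1 heterozygote read 1.03. The calls of Fabp7, Sox3 and Nkx2-2 by gene held in all 14 alternatives. Tested by probe set, the Fabp7 call ended in the 4 null arrays alone and without the second Notch1 null array. The remaining 7 called members were Hes5, Pou3f3, Ckb, Sox21, Olig2, Pou3f4 and Ptn. The count of 10 was 6 after quantile normalization, in the 4 null arrays alone and without the first Notch1 null or the first Dll3 null array, and 4 without the second Notch1 null array.

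Some genes that start or mark nerve cells were also lower. Of 17 proneural genes 4 were lower and 0 higher: Neurog2, a bHLH factor that drives neurons to form, read 0.638 and 0.662 against 0.984 and 1.00 (log2 -0.61 ± 0.11, adjusted p = 0.0112), and Neurod1, Hes6 and Olig2 made up the rest. All 4 calls ended without either Notch1 null array and without the first Dll3 null array, and that of Olig2 ended in 9 of 14 alternatives. Of 36 neuronal genes 7 were lower and 0 higher, with a median of -0.21. Stmn2, a regulator of microtubules in growing axons, read 0.559 and 0.594 against 1.04 and 0.971 (log2 -0.80 ± 0.11, adjusted p = 0.00577). Tubb3, the neuronal tubulin, read 0.382 and 0.492 against 1.32 and 0.826 (log2 -1.27 ± 0.21, adjusted p = 0.0101). The neurofilament gene Nefm read 0.523 and 0.693 against 1.34 and 1.00, and Stmn3 0.704 and 0.627 against 1.36 and 0.960. The number of neuronal genes called was 0 without the first Dll3 null array, which read above the second Dll3 null array in all 7 of them, 2 without either Notch1 null array, 3 after quantile normalization and 1 in the 4 null arrays alone.

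The Notch1 heterozygote, a single array, stood in different places for different groups of genes. For neuronal genes it lay nearer the Notch1 null mean than the wild type mean in 6 of 7 called genes, with Tubb3 at 0.513, Stmn2 at 0.543 and Nefl at 0.532. For oxidative phosphorylation this held for 8 of 10 called genes and for the lower Notch targets for 4 of 4. For the oxygen list it held for 1 of 25 called genes, for heat shock genes for 0 of 4 and for ATF4 genes called higher for 0 of 9. Over all called genes the share was 104 of 362 (28.7%) among those higher and 224 of 604 (37.1%) among those lower. With 1 array there is no replicate check of these positions.

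Genes of vessels moved in both directions. Of 44 measured genes on the endothelial list 9 were higher and 2 lower, with a median of 0.15. Vegfa, among these 9, also stands on the oxygen list and is counted in both. Sox17, a factor of arterial endothelium and endoderm, read 1.59 and 1.89 against 0.960 and 0.878 (log2 0.92 ± 0.12, adjusted p = 0.00353). Kdr, the main receptor for VEGF on endothelium, read 1.57 and 1.82 against 1.00 and 0.805 (log2 0.91 ± 0.14, adjusted p = 0.0075), and its ligand Vegfa, a HIF target, 1.58 and 1.81 against 0.973 and 1.02 (log2 0.77 ± 0.11, adjusted p = 0.0066). Nrp1, Sox18, Flt1, Nrp2, Apln and Flt4 made up the rest of the 9, a count that was 1 without the second Notch1 null array, 2 without the first and 4 without the second Dll3 null array, 6 without wild type and 3 in the 4 null arrays alone. Gja4, a gap junction protein of arteries, was lower at 0.359 and 0.475 against 1.04 and 1.00 (log2 -1.31 ± 0.16, adjusted p = 0.00337), by gene in all 14 alternatives. Tested by probe set, its call ended in the 4 null arrays alone. Emcn, a sialomucin of veins and capillaries, was the other lower member (-0.47 ± 0.12, adjusted p = 0.0445), and its call ended without any 1 of the 4 null arrays.

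Heart genes that passed were higher. Of 36 cardiac muscle genes 4 were higher and 0 lower, with a median of 0.05; without the second Notch1 null array 1 was called, Ankrd1. Ankrd1, a stretch-responsive protein of the muscle sarcomere, read 1.98 and 2.09 against 1.11 and 0.998 (log2 0.95 ± 0.11, adjusted p = 0.00297). Myh7, the myosin of embryonic ventricle, read 1.77 and 2.10 against 1.03 and 0.854, Ttn, which spans the sarcomere, 1.67 and 1.79 against 0.936 and 0.996, and Actn2 1.16 and 1.25 against 0.850 and 0.933. Of 27 heart factors and cushion genes 5 were higher and 0 lower: Tgfb2 (1.39 and 1.47 against 0.790 and 0.813), Bmp2 (1.31 and 1.67 against 0.859 and 0.951), Gata6, Bmp4 and Postn. Tgfb2 and Bmp2 are signals in the formation of heart valve cushions. The Notch1 heterozygote read 1.45 for Tgfb2. The count of 5 was 0 without the second Notch1 null array, 1 without the first Dll3 null array and 2 in the 4 null arrays alone.

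Segmentation is the process in which Dll3 is best known to act. Of 27 measured genes of the clock and presomitic mesoderm 2 were higher (7.41%), Bhlhe40 and Dact1, and 2 lower (7.41%), Lfng and Nrarp, with a median of 0.01. The lower calls numbered 0 without either Notch1 null array, in the 4 null arrays alone and after quantile normalization. Dact1, a modulator of Wnt signalling, read 1.41 and 1.41 against 1.00 and 0.927 (log2 0.55 ± 0.11, adjusted p = 0.0168). The Dact1 call ended in 5 of 14 alternatives, in the 4 null arrays alone and on leaving out any 1 of them. Tbx6 and Msgn1, factors of presomitic mesoderm, differed by 0.34 ± 0.19 and -0.23 ± 0.11, and the segment boundary factors Mesp1 and Mesp2 by -0.11 ± 0.14 and -0.02 ± 0.13; these 4 did not pass. Of 26 genes of somites and their derivatives 2 were lower (7.69%, beside 4.87% of all genes) and 0 higher, with a median of -0.12. Pax1, a factor of the ventral sclerotome, which forms vertebral bodies, read 0.572 and 0.696 against 1.06 and 0.971 (log2 -0.68 ± 0.13, adjusted p = 0.0136). Uncx, a factor of the caudal sclerotome, read 0.621 and 0.507 against 0.816 and 0.760 (log2 -0.49 ± 0.11, adjusted p = 0.0292). Uncx was 1.38 and 1.32 in wild type, so that the Dll3 null arrays lay between the wild type and the Notch1 null arrays; their log2 difference from wild type was -0.78 (adjusted p = 0.0749). The Pax1 call ended in 3 and the Uncx call in 5 of 14 alternatives.

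Hox genes, which give body position along the axis, had 3 calls. Of 12 anterior Hox genes 2 were higher (16.7%): Hoxa5, at 1.64 and 1.65 against 0.911 and 0.829 (log2 0.92 ± 0.10, adjusted p = 0.00195), and Hoxb1 (0.49 ± 0.13, adjusted p = 0.0483). Of 18 posterior Hox genes Hoxa9 alone was higher (5.56%, beside 2.92% of all genes), at 1.42 and 1.43 against 0.965 and 1.06 (0.49 ± 0.10, adjusted p = 0.0193). The Hoxa5 call by gene held in all 14 alternatives, whereas that of Hoxb1 ended in 9 and that of Hoxa9 in 5. Of 36 neural crest and branchial arch genes 2 were higher (5.56%, beside 2.92% of all genes) and 0 lower: Kit, the receptor for stem cell factor, at 1.47 and 1.52 against 0.842 and 1.00, and Snai2. The Kit call ended in 4 and the Snai2 call in 7 of 14 alternatives. Of 19 genes of hedgehog signalling and the ventral tube Nkx2-2 was the only call (5.26%), a share near the 4.87% of all genes called lower.

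Extracellular matrix genes had 10 of 36 higher and 0 lower, with a median of 0.27. Fn1, fibronectin, read 1.65 and 1.65 against 0.766 and 0.985 (log2 0.93 ± 0.13, adjusted p = 0.00507), Nid2, a basement membrane protein, 1.43 and 1.71 against 1.00 and 0.939, and Lum 1.38 and 1.94 against 1.00 and 0.897. The count was 0 without the second Notch1 null array, 2 without either Dll3 null array and 1 in the 4 null arrays alone. Of 45 cell cycle genes 5 were lower and 0 higher, with a median of -0.15; Ccne1, the cyclin that opens S phase, read 0.569 and 0.518 against 1.05 and 0.892 (log2 -0.84 ± 0.11, adjusted p = 0.00474), and Rrm2, Birc5, Mcm5 and Tk1 followed. The count of 5 was 0 without the second Notch1 null array, and 1 without the first Dll3 null array or in the 4 null arrays alone. Among 29 genes of FGF, Wnt and BMP signalling the ligands Bmp2 and Bmp4 were higher, and Id1 (0.658 and 0.669 against 1.12 and 1.03) and Id3 (0.712 and 0.715 against 1.21 and 0.957), which respond to BMP, were lower. Each direction held 6.9% of this list, beside 2.92% of all genes called higher and 4.87% called lower. The other BMP response genes on the list, Id2, Smad6, Smad7, Bambi, Msx1 and Msx2, lay between 0.10 and 0.26 and did not pass. All 4 calls ended without the second Notch1 null array.

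Some lists gave few or no calls. Of 36 ribosomal protein genes 0 passed in either direction, with a median of -0.07; limma's test without adjustment gave 4 of them a p under 0.05. Of 28 genes of p53 and apoptosis Bnip3 was higher and Casp8 and Aen were lower, of 21 cholesterol genes Mvk was lower and of 15 retinoic acid genes Crabp2 was lower. These shares were 3.57% higher, and 7.14%, 4.76% and 6.67% lower. They lay near the 2.92% and 4.87% of all genes called higher and lower.

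Markers of tissue that can come away with an embryo, and of blood, gave no calls in the main fit. Of 12 yolk sac endoderm genes, 20 genes of primitive red cells, 8 of trophoblast and decidua and 7 of adult blood, 0 passed in either direction; limma gave 0, 3, 1 and 1 of them an unadjusted p under 0.05. Ttr, a yolk sac product, read 1.80 and 0.358 in the Notch1 null arrays and 1.00 and 0.471 in the Dll3 null arrays, and Afp 1.11 and 0.405 against 1.10 and 0.670. The embryonic globin gene Hba-x read 0.999 and 1.06 against 1.01 and 0.648, and over the red cell list the median difference was -0.19 between the first replicates and 0.55 between the second ones. Prl8a2, a hormone of decidua, read 2.70 in the first Notch1 null array and between 0.848 and 1.09 in the 8 other arrays. Without the first Dll3 null array, members of the red cell and adult blood lists were called higher. Without the second Notch1 null array, so was a member of the trophoblast and decidua list. The mean log2 ratio of the yolk sac list was 0.310 and -0.573 in the Notch1 null arrays and 0.0789 and -0.355 in the Dll3 null arrays. A lack of calls therefore does not show equal tissue content. The part of these tissues in other results was not tested.

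**Figure D4:**
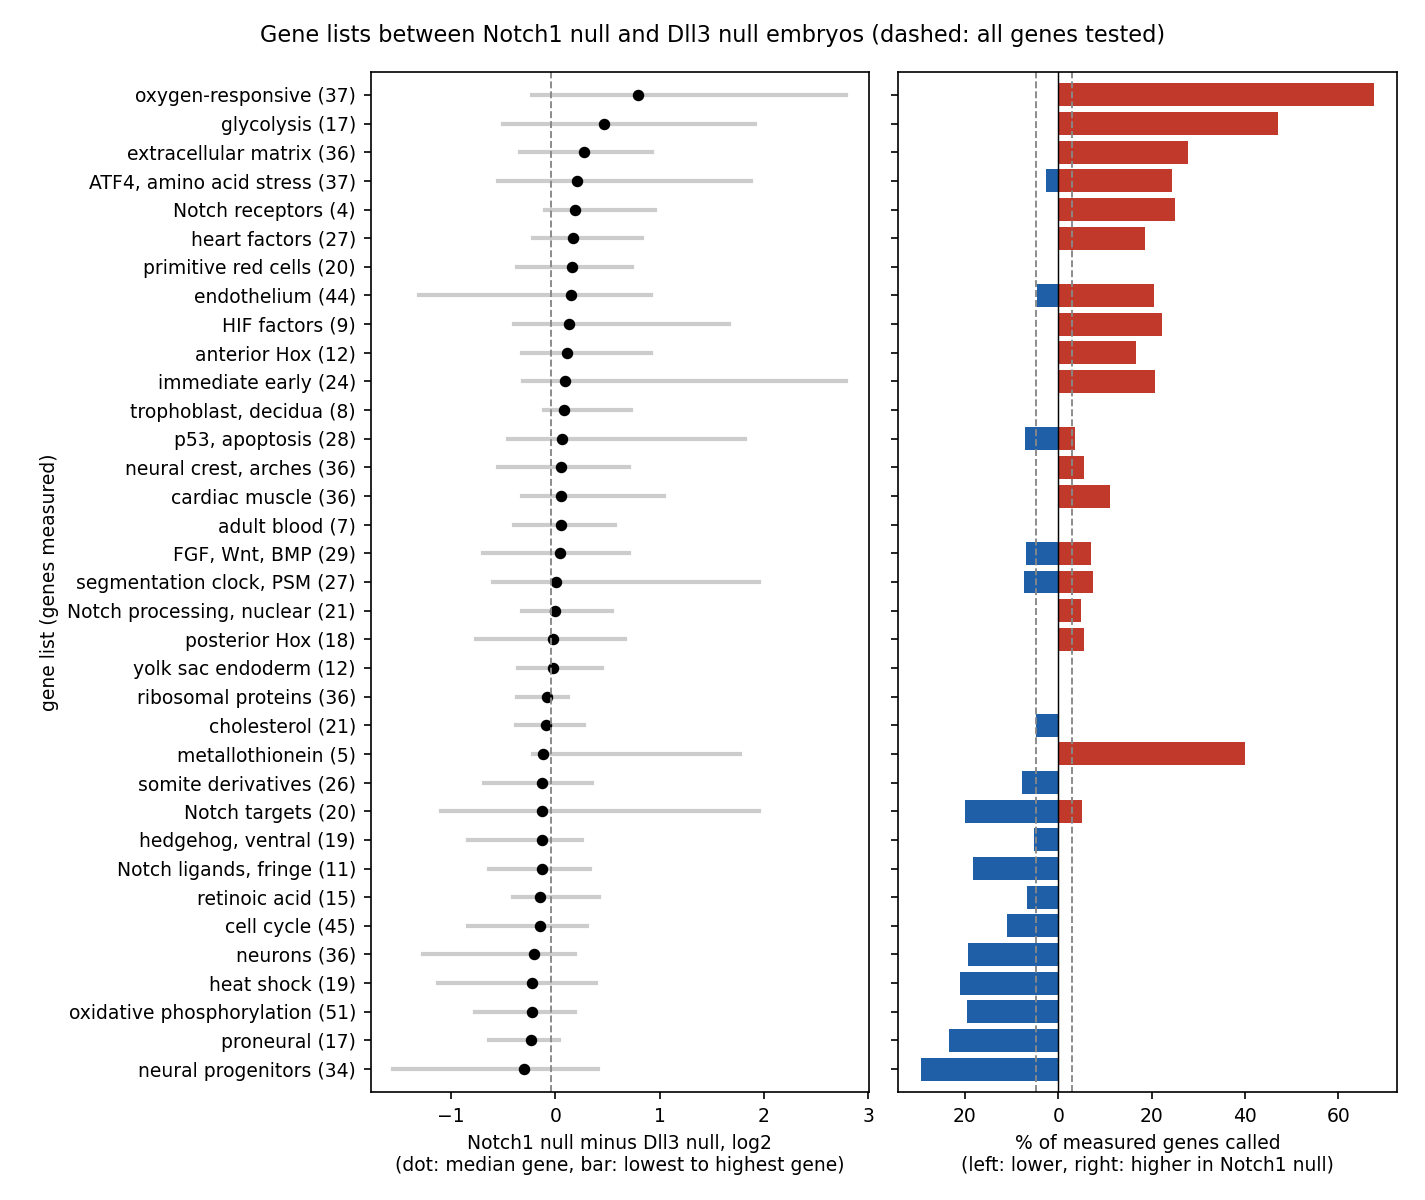
Log2 difference, Notch1 null minus Dll3 null, over 35 gene lists (left: dot for the median gene, bar from the lowest to the highest gene) and the percentage of measured genes called lower (bars to the left) or higher (bars to the right) in the Notch1 null arrays (right). Dashed lines give all 12393 genes, with a median of -0.04, 2.92% called higher and 4.87% called lower; the oxygen list stands highest at 0.79 and the neural progenitor list lowest at -0.30.

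The 30 genes furthest apart included several on none of these lists. Of all 30 named probe sets, 3 kept their call in a fit to the 4 null arrays alone. Ogt, the enzyme that attaches N-acetylglucosamine to nuclear and cytoplasmic proteins, read 1.54 and 2.18 against 0.258 and 0.581 in its furthest probe set (log2 2.24 ± 0.31, adjusted p = 0.00678). Wild type read 1.10 and 1.00 and the Dll3 heterozygotes 0.637 and 0.605, so the wild type arrays lay nearer the Notch1 null arrays; of 5 Ogt probe sets 3 were called higher. Luc7l2, a splicing factor, read 3.23 and 3.44 against 0.288 and 1.12, and Gdap10 2.46 and 2.55 against 0.440 and 1.15; in both, the first Dll3 null array was far below the second, and 2 of 5 Luc7l2 probe sets were called. The Luc7l2 call ended in 5 and the Gdap10 call in 4 of 13 alternatives, among them quantile normalization and leaving out either Notch1 null array. Kcne3, a subunit of potassium channels, read 2.71 and 3.75 against 1.01 and 0.761.

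On the lower side Hnrnpl, an RNA-binding regulator of splicing, read 0.573 and 0.748 against 1.71 and 1.82 (log2 -1.43 ± 0.16, adjusted p = 0.00271). For Hnrnpl wild type read 1.00 and 1.01 and the Dll3 heterozygotes 0.939 and 1.20, so that the null groups lay on opposite sides of wild type. Ubtf, a factor of ribosomal RNA transcription, read 0.553 and 0.554 against 1.36 and 1.23, with both probe sets called. Med29, a Mediator subunit, read 0.533 and 0.468 against 1.49 and 1.17, with 1 of 2 probe sets called. Car3, Rab26os, Pop5, Acot7 and Rex1bd fell by between 1.07 and 1.14 in log2. Fscn1, an actin-bundling protein, read 0.656 and 0.742 against 2.04 and 1.13; 1 of its 4 probe sets was called, and that call ended in 7 of 13 alternatives.

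Each null group was also set against heterozygotes of its own allele, which asks whether the step from heterozygote to null differed between the 2 genes. Between Dll3 null and Dll3 heterozygote, limma called 0 probe sets, with 1201 at an unadjusted p under 0.05; between Notch1 null and Notch1 heterozygote it called 403 (1.78%), 193 higher (0.853%) and 210 lower (0.928%). The Notch1 heterozygote is 1 array, which the fit takes to vary like the other groups. The difference of these differences passed for 47 probe sets (0.208%), 26 higher (0.115%) and 21 lower (0.0928%). Ddit4 stood highest, with a difference of differences of 3.46 ± 0.40 (adjusted p = 0.03), followed by Mt1 at 3.26 ± 0.50, Adm at 2.82 ± 0.39, Ier3 at 2.68 ± 0.29 and Vldlr at 2.59 ± 0.21. Of the oxygen list, 12 of 37 genes passed upward and 0 downward in the fit by gene, beside 23 and 18 of all 12393 genes (0.186% and 0.145%). Because that list was chosen with earlier results of these data known, its count is no independent test. The furthest downward were Polr2a, a subunit of RNA polymerase II, Epop, Hspa8, Psme3 and Dmpk. Their differences lay between -1.69 and -1.56, and each was highest in the single Notch1 heterozygote, with Polr2a at 2.83 there and between 0.840 and 1.31 elsewhere. No probe set passed after quantile normalization, 5 passed without the wild type arrays and 2 with the replicate number as a block. The count fell without either Notch1 null array, the first Dll3 null array or either Dll3 heterozygote. It rose without the second Dll3 null array. Such fits leave 1 array in a group and fewer residual degrees of freedom, so the part of that array's values in these changes cannot be told apart.

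**Figure D5:**
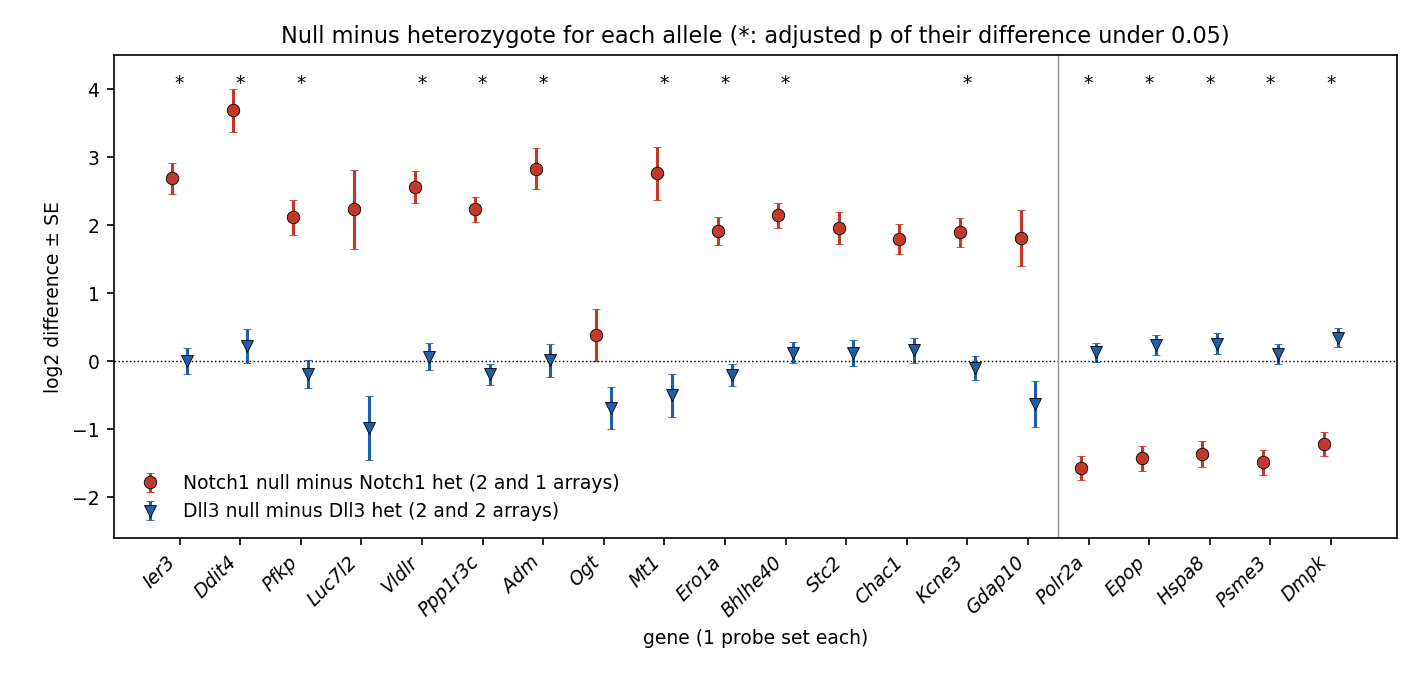
Log2 difference between null and heterozygote for each allele (circles: Notch1, 2 arrays against 1; triangles: Dll3, 2 against 2; bars: SE), for the 15 genes furthest above in Notch1 null arrays and, right of the line, the 5 furthest below in the difference of the 2 steps. Asterisks mark an adjusted p under 0.05 for that difference; Ddit4 stands apart most, at 3.46.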

How the data were processed

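RNA from whole embryos was hybridised to 9 Affymetrix MOE430A arrays. The values deposited by the authors are linear ratios with no absolute level or detection call; RMA is named in the submitters' processing notes, and the step that divided each probe set by its own number is not described in the sources read. Arrays were grouped by their titles. From the ratios, log2 values were computed and limma 3.58.1 in R 4.3.3 fitted 1 mean per genotype over all 9 arrays (4 residual degrees of freedom). The Benjamini-Hochberg adjustment ran over 22626 probe sets, after leaving out 64 controls, and an adjusted p under 0.05 is a call. Gene values are means of log2 ratios over probe sets with 1 symbol (20380 probe sets, 12393 genes; 691 had several symbols and 1555 none). The 15 called genes furthest in each direction and the 5 furthest each way in the difference between null and heterozygote were named, and from each list mainly the members of lowest p; other members named were chosen after their values were seen. The members and the 35 gene lists were chosen with earlier results of these data known. Of 879 listed symbols 774 were measured. Alternatives covered the scaling, the arrays fitted, the replicate block, variance moderation, array weights, a filter, a pseudocount, 1 probe set per gene and leaving out single arrays. The number of arrays limits the precision.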

Additional observations from a re-analysis of the deposited data

Results flagged for a closer look

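The results here passed the test of a difference between the Notch1 and the Dll3 allele in the step from heterozygote to null (limma, adjusted p under 0.05). The Notch1 step rests on 2 arrays against 1, whose spread is taken from the other groups, and the Dll3 step on 2 against 2. The calls changed with the arrays and settings used: instead of 47 probe sets, 0 passed after quantile normalization and 2 with the replicate block. Fewer also passed without either Dll3 heterozygote or without the second Notch1 null array, fits that have fewer residual degrees of freedom. On the log2 scale the Notch1 step exceeded the Dll3 step by 3.46 for Ddit4, 3.26 for Mt1 and 2.82 for Adm. It exceeded it by 2.68 for Ier3, 2.59 and 2.50 for the Vldlr probe sets, 2.42 for Ppp1r3c and 2.30 for Pfkp. For Ero1a, Bhlhe40 and Kcne3 the excess was 2.11, 2.02 and 1.99. The Notch1 step lay below the Dll3 step for Polr2a (-1.69), Epop (-1.66), Hspa8 (-1.62), Psme3 (-1.59) and Dmpk (-1.56), and these 5 were highest in the single Notch1 heterozygote. Ddit4 (0.495) and Mt1 (0.453) were lowest in that same array. No group held enough arrays for a test of a single outlying array.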

How the results depend on the processing

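The counts changed most with the arrays fitted and with quantile normalization. The calls of the comparison of null groups numbered 1298 probe sets, and between 1205 and 1472 with median centring, robust moderation, array weights, a filter on probe sets with a median below 1 or a pseudocount. No label pairs arrays by replicate number, and the deviations of the first replicates of the null groups correlated at r = -0.098, although the sex pattern of the null arrays goes with the number. With 2 pairs this was not taken as pairing, and with the replicate number as a block 1095 probe sets were called, with 2 instead of 47 for the difference between null and heterozygote. After quantile normalization 568 probe sets (292 higher, 276 lower), 448 genes (220 and 228) and 85 listed genes were called, with 1 lower Notch target, 4 glycolytic, 3 neuronal, 6 neural progenitor and 1 lower endothelial gene, and 0 for the null-heterozygote difference. The 4 null arrays alone gave 9 probe sets (9 higher, 0 lower), 182 genes (82 and 100) and 49 listed genes, with 1 lower Notch target, 2 glycolytic, 1 neuronal, 6 neural progenitor, 3 higher and 1 lower endothelial and 1 matrix gene. Without wild type 862 probe sets (485 lower), 6 higher and 1 lower endothelial genes and 5 null-heterozygote differences were called. With median centring or 1 probe set per gene 1 endothelial gene was lower.

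Leaving out 1 of the 4 null arrays gave 57 to 879 probe sets (44 to 412 higher, 13 to 467 lower), 94 to 591 genes (50 to 254 and 44 to 379) and 34 to 101 listed genes. By list it gave 18 to 26 oxygen-responsive, 2 to 7 glycolytic, 1 to 4 lower Notch target, 0 to 8 neuronal, 4 to 9 neural progenitor, 1 to 8 higher and 1 lower endothelial, and 0 to 11 matrix genes, and 0 to 173 null-heterozygote differences. Leaving out either Dll3 heterozygote gave 1017 probe sets and 0 null-heterozygote differences.

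Of the values followed, 16 changed sign, in 12 genes that were called under neither setting. Myc was 0.030 with median centring and 0.041 with quantile normalization, and -0.038 to 0.036 with 1 null array left out, among them 0.0019 without the second Notch1 null array. With 1 null array left out Hey2 ranged from -0.0059 to 0.16, Dtx1 from -0.11 to 0.15, Rbp4 from -0.23 to 1.12, Prl8a2 from -0.047 to 1.49, Jag2 from -0.14 to 0.28, Afp from -1.09 to 0.37 and Ctsq from -0.28 to 0.063. Slc30a1 ranged from -0.30 to 0.065, S100a9 from -0.046 to 0.19, Pofut1 from -0.27 to 0.014 and Alas2 from -0.17 to 1.32. The cause of these shifts was not tested. The files hold no signal over background, so weakly hybridised probe sets could not be set apart.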

Other observations

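A smaller set of differences between the null groups lay on the Dll3 side, in that wild type was nearer the Notch1 null mean. The genes named here were chosen after their values were seen, as the furthest of this kind by probe set. Averaged over the probe sets of each gene, 0 genes were called higher and 1 lower in the Dll3 null arrays against wild type. Tfrc, the transferrin receptor that takes up iron, in 1 of its 3 probe sets read 1.48 and 1.75 in the Dll3 null arrays against 0.882 and 1.00 in the Notch1 null and 0.813 and 0.728 in the wild type arrays, a log2 difference of 1.07 from wild type (limma, adjusted p = 0.0403). The 2 other Tfrc probe sets did not pass, nor did the mean over the 3, with a log2 difference between the null groups of -0.36 (adjusted p = 0.0759). Pbrm1, a subunit of a chromatin remodelling complex, in 1 of 3 probe sets read 0.479 and 0.556 against 1.31 and 1.26, with a difference from wild type of -1.09 (adjusted p = 0.032); the others did not pass against wild type. The long non-coding RNA Tug1 in 1 of 3 probe sets read 1.41 and 1.89 against 1.00 and 0.675, and the gap junction gene Gja1, in 1 of 6, read 1.37 and 1.63 against 0.761 and 1.00. Neither of these probe sets passed against wild type (limma, adjusted p = 0.142 for Tug1 and 0.092 for Gja1).

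The Dll3 heterozygotes lay with the Dll3 null arrays in these probe sets, at 2.02 and 1.64 for Tfrc, 0.681 and 0.601 for Pbrm1, 1.43 and 1.69 for Tug1 and 1.71 and 1.45 for Gja1. The dap spike-in splits the arrays in the same way, with all 4 Dll3 arrays low, so the allele and the RNA preparation cannot be told apart for them.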
